A study of Mus musculus with 37 samples.

Results

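The genes described here build and move the actin filaments that carry the meiotic spindle to the oocyte surface and shape the first polar body. They are the filament nucleators Fmn2, Spire1 and Spire2, the Arp2/3 complex subunits Actr2, Actr3, Arpc2 and Arpc4, the severing factor Cfl1, the vesicle motor Myo5b and the GTPase Rac1. They were picked by symbol for their known roles, at a time when earlier results of these data were known. They make up 10 of 54752 genes, with 56 of 138835 transcripts.

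A mouse oocyte divides very unequally, so its spindle has to leave the cell centre before the first polar body forms. Formin-2 and the Spire proteins nucleate long, unbranched filaments together, and vesicles that carry them, Rab11 and myosin Vb tie these filaments into a mesh that fills the cytoplasm. The Arp2/3 complex instead starts branches on existing filaments and builds a thick actin cap at the cortex above the chromosomes, while cofilin severs and takes apart old filaments and Rac is active in the cortex near the chromosomes.

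RNA of single C57BL/6 oocytes was sequenced after Smart-seq2 amplification, which primes reverse transcription at poly(A) tails and keeps no record of the strand. The females were 6 to 8 weeks old, and each library held 1 oocyte without its zona and polar body. Batch A held 6 oocytes at the germinal vesicle (GV) stage, taken from ovaries 48 h after PMSG, and 6 metaphase II (MII) oocytes, ovulated and collected 15 h after hCG. Batch B held 10 GV oocytes obtained in the same way and 15 metaphase I (MI) oocytes, which were GV oocytes freed of their cumulus cells and cultured in M16 medium for 8 h. MI and MII oocytes therefore differed in batch and also in whether they matured in a dish or in the animal, and these cannot be told apart from stage. Each library was treated as a replicate of its stage, and nothing says that the oocytes came from separate animals, so the p-values measure the spread between these oocytes.

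Expected counts assigned to genes ranged from 7509875 to 12648629 in the GV oocytes of batch A (median 10014033), while those of MII oocytes spanned 9930485 to 13988444. In batch B they ranged from 7184205 to 17724506 in GV oocytes (median 11548242) and from 2709280 to 19390128 in MI oocytes (median 12840734), with MI oocyte 15 the shallowest. Levels are in CPM, the count relative to the total of the library after TMM scaling within the batch, unless stated otherwise. A gene was called where its Benjamini-Hochberg adjusted p over all genes tested was under 0.05 and its fold change was over 2, and genes that met only the first condition are named as past the adjusted p.

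The libraries were oocyte-like by their markers. All 12 oocyte markers had counts in every group, with Gdf9 the most abundant, and their summed level ranged from 12137 to 20086 CPM in GV and from 9227 to 11322 CPM in MII oocytes of batch A, and from 4017 to 7362 CPM in GV and from 3983 to 6197 CPM in MI oocytes of batch B. In batch A 4 of the 12, Zp1, Zp2, Zp3 and Ooep, were called lower in MII oocytes, and their part in the results below was not tested. The 14 cumulus and granulosa markers together reached 30.9 to 60.1 CPM in GV and 35.5 to 48.8 CPM in MII oocytes of batch A, with Cyp19a1 the most abundant and Ptx3 at 0 in the GV group. Ccnd2, Inha and Fshr lay below the GV median in 6 of 6 MII oocytes, and Nr5a2 above it in 6 of 6. Ccnd2, Inha and Fshr did not pass the filter in batch A, and Nr5a2 was not past the adjusted p (0.770). In batch B the sum of the 14 markers was 28.4 to 66.6 CPM in GV and 26.8 to 80.1 CPM in MI oocytes. Amh, Foxl2 and Ptx3 were at 0 in both groups there, and the most abundant was Cyp19a1 in GV and Nr5a2 in MI oocytes. The 5 blood and immune markers summed to at most 0.153 CPM in GV oocytes of batch A, where Ptprc was the most abundant and Cd52 and Lyz2 were at 0. They summed to at most 4.21 CPM in GV and 3.71 CPM in MI oocytes of batch B, with Hbb-bs the most abundant and Lyz2 at 0 in both. MII oocyte 1 stood apart with 12.8 CPM of these markers, against at most 0.780 CPM in the other MII oocytes. It also had counts in 29518 genes, where the other 11 oocytes of batch A had them in 19273 to 22244.

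The first comparison asked how the actin genes stood in ovulated MII oocytes against GV oocytes of batch A. Relative to all other transcripts, the nucleators Fmn2 and Spire1 and the GTPase Rac1 were higher in MII oocytes and the severing factor Cfl1 was lower, each by less than 2-fold. These 4 of 10 genes were past the adjusted p, 3 higher and 1 lower, where 20.6% of the 12929 genes tested were (9.06% higher and 11.5% lower). All 10 genes passed the filter on low counts, and 0 of them were called by edgeR, where 8.47% of all genes were. At an unadjusted p under 0.05 there were 6 of the 10, beside 4441 of all genes, and DESeq2 also called 0 of the 10. The median log2 fold change of the 10 was 0.18, and that of all genes tested was 0.01.

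These directions are relative to the oocyte's own RNA and depend on the scaling. ERCC spike-ins, synthetic RNAs, made up a median of 0.849% of the counts in GV and 1.17% in MII oocytes, and scaling to them, which takes the amount added to each oocyte as equal, moved the median log2 fold change of all genes to -0.72. Under that scaling 131 genes were called higher and 3788 lower in MII, against 278 and 817 under TMM, and all 10 actin genes had a negative value. Fmn2 stood at -0.28, Spire1 at -0.19, Actr2 at -0.44, Actr3 at -0.43, Rac1 at -0.37 and Myo5b at -0.66, so their sign flipped. Set against the shift of all genes, Spire1 lay 0.53 and Fmn2 0.44 above it, Rac1 0.35, and Actr2 and Actr3 0.28 each, while Cfl1 lay at -0.63 and Spire2 at -0.41 from it. With spike-ins Cfl1 (-1.34, adjusted p = 0.000132) and Spire2 (-1.12, adjusted p = 0.0155) were called lower, and Arpc2, Arpc4 and Myo5b were past the adjusted p as well, so that Cfl1 was the 1 gene past it under both scalings.

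Spire1, which nucleates filaments through its WH2 domains and works as a partner of Fmn2, ranged from 190 to 244 CPM in GV oocytes (median 234) and from 246 to 384 CPM in MII oocytes (median 338). All 6 MII oocytes lay above all 6 GV oocytes, though MII oocyte 1, the lowest of its group, did so by a narrow margin. The separation depends on the scale, as per transcript length and scaled to the same total Spire1 ranged from 137 to 198 in GV and from 143 to 267 in MII oocytes. The mean was 225 ± 19.8 CPM (SD, n = 6) in GV and 331 ± 47.7 CPM (SD, n = 6) in MII oocytes, a log2 fold change of 0.56 (SE, standard error, 0.127, adjusted p = 0.00633). Spire1 stayed past the adjusted p in 12 of 12 fits that left out 1 oocyte each.

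Fmn2, the formin that elongates these filaments and without which the spindle stays central, ranged from 128.5 to 213 CPM in GV oocytes (median 174) and from 199 to 284 CPM in MII oocytes (median 247). The groups overlapped, with 4 of 6 MII oocytes above every GV oocyte and 6 of 6 above the GV median. The log2 fold change was 0.48 (SE 0.146, adjusted p = 0.0273). Fmn2 was past the adjusted p in 8 of 12 fits that left out 1 oocyte each, and missed it without GV oocyte 5 (0.0618), MII oocyte 2 (0.0560), MII oocyte 3 (0.0579) or MII oocyte 6 (0.0558). It also missed it without a filter on low counts (0.0886) and with a replicate block. Spire2, the scarcer Spire paralog, ranged from 7.45 to 12.5 CPM in GV oocytes (median 9.11) and from 4.06 to 12.9 CPM in MII oocytes (median 6.48). In MII, 4 of 6 oocytes lay below every GV oocyte and MII oocyte 5 lay above all of them, and the log2 fold change was -0.39 (SE 0.267, adjusted p = 0.323). Leaving out 1 oocyte moved it between -0.27, without MII oocyte 3, and -0.64, without MII oocyte 5, where the adjusted p was lowest (0.0806).

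Of the Arp2/3 complex, Actr2 and Actr3 are the actin-related pair that forms the first unit of a new branch, and Arpc2 and Arpc4 are the core that clamps the complex to the mother filament. Actr3 ranged from 82.9 to 119 CPM in GV oocytes (median 108) and from 125 to 128 CPM in MII oocytes (median 127). The groups did not overlap in CPM, and the MII oocytes were tightly bunched there, with a coefficient of variation of 1.05% where the median of all tested genes was 28.4%. Per transcript length and scaled to the same total without TMM, the groups overlapped and the MII oocytes were less bunched. On that scale Actr3 ranged from 66.8 to 96.2 in GV and from 81.3 to 95.4 in MII oocytes (mean 85.1, SD 5.36). The parts of length and of scaling in this were not separated. The log2 fold change was 0.29 (SE 0.119, adjusted p = 0.0898), so Actr3 was not past the adjusted p. DESeq2 (0.0483) and HTSeq counts (0.0381) put it past. Together with Spire1 it made 2 of 10 genes whose groups did not overlap in CPM, where 9.79% of all genes tested had none.

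Actr2 ranged from 77.1 to 119 CPM in GV oocytes (median 88.9) and from 106 to 126 CPM in MII oocytes (median 118). All 6 MII oocytes were above the GV median and 3 were above every GV oocyte. The log2 fold change was 0.32 (SE 0.130, adjusted p = 0.0926), and Actr2 was past the adjusted p only without GV oocyte 1 (0.0409). The clamp subunits differed by less than their spread between oocytes. Arpc2 lay between 43.3 and 56.4 CPM in GV and between 40.4 and 53.5 CPM in MII oocytes, with a log2 fold change of -0.04 (SE 0.132). Arpc4 lay between 10.9 and 13.5 CPM in GV and between 10.6 and 14.1 CPM in MII oocytes, with a log2 fold change of -0.02 (SE 0.167).

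Cfl1, the non-muscle cofilin, ranged from 265 to 495 CPM in GV oocytes (median 417) and from 209 to 319 CPM in MII oocytes (median 249). The groups overlapped, with 6 of 6 MII oocytes below the GV median and 3 below every GV oocyte. The mean was 393 ± 101 CPM (SD, n = 6) in GV and 253 ± 44.0 CPM (SD, n = 6) in MII oocytes, a log2 fold change of -0.63 (SE 0.176, adjusted p = 0.0183). Cfl1 was past the adjusted p in 12 of 12 fits that left out 1 oocyte each, and missed it in a model of all 37 oocytes (0.121), as did Fmn2 (0.0908) and Rac1 (0.289).

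Its relatives, which also sever filaments, were lower in MII oocytes too under TMM, and with spike-ins 0 of 16 tested genes of the cofilin family and its regulators were higher and 6 lower past the adjusted p, beside 144 higher and 5452 lower of all 12929 genes. Cfl2, the muscle-type cofilin, ranged from 86.9 to 152 CPM in GV and from 39.0 to 83.7 CPM in MII oocytes, and its groups did not overlap. Its log2 fold change was -0.95 (SE 0.206, adjusted p = 0.00447), and it stayed past the adjusted p in 12 of 12 fits without 1 oocyte. Dstn, which encodes destrin, ranged from 66.5 to 114 CPM in GV and from 37.1 to 67.2 CPM in MII oocytes, with a log2 fold change of -0.61 (SE 0.180, adjusted p = 0.0254). Dstn was past the adjusted p in 8 of those 12 fits, and missed it without MII oocyte 1 (0.0602) and on HTSeq counts (0.0731).

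Myo5b, the myosin that moves Rab11 vesicles along the mesh, ranged from 191 to 282 CPM in GV oocytes (median 242) and from 184 to 351 CPM in MII oocytes (median 236). MII oocytes lay both above and below all GV oocytes, and the log2 fold change was 0.07 (SE 0.167, adjusted p = 0.789). Its paralog Myo5a ranged from 44.7 to 62.9 CPM in GV and from 53.8 to 80.9 CPM in MII oocytes, with a log2 fold change of 0.29 (adjusted p = 0.150).

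Rac1, the GTPase that turns on the WAVE complex and through it Arp2/3, ranged from 62.5 to 115 CPM in GV oocytes (median 86.2) and from 111 to 121 CPM in MII oocytes (median 115). All 6 MII oocytes were above the GV median and 4 were above every GV oocyte, and their coefficient of variation was 2.86%, against 19.2% in GV. Rac1 was also read per transcript length, scaled to the same total without TMM. On that scale it ranged from 69.3 to 124 in GV and from 95.7 to 110 in MII oocytes. No MII oocyte was then above every GV oocyte. The log2 fold change was 0.41 (SE 0.135, adjusted p = 0.0414). Of the 4 genes past the adjusted p, Rac1 was past it in the fewest of these fits. It held in 1 of 12 fits that left out 1 oocyte each, without GV oocyte 1 (0.0134), while the adjusted p without any other oocyte was between 0.0561 and 0.0759, and it was 0.0568 on HTSeq counts and 0.161 without a filter. Rac1 missed the threshold with a replicate block as well. In addition, 2309 exon bases of Rac1 lie on the opposite strand to Daglb, which had 92.5 CPM in GV and 96.4 CPM in MII oocytes, and reads without a strand cannot be told apart there.

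**Figure D1:**
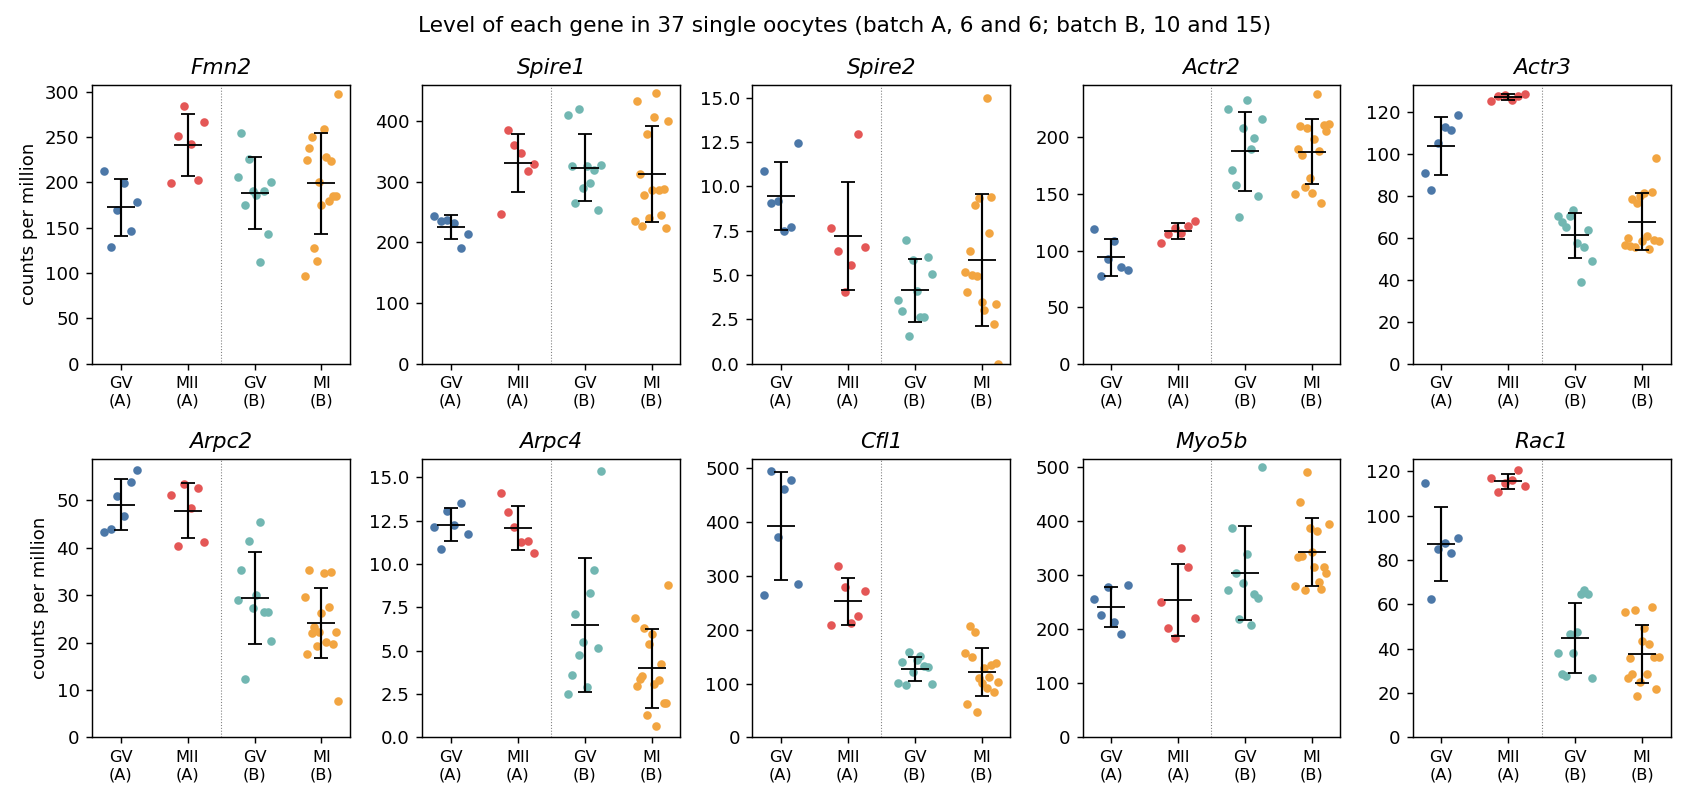
Level of each of the 10 actin genes in every oocyte, in CPM within batch, for GV and MII oocytes of batch A and GV and MI oocytes of batch B, with 1 point per oocyte and bars for mean and SD. In batch A the Spire1 and Actr3 groups did not overlap, and in batch B every gene's groups did.

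The second comparison asked how the same genes stood after GV oocytes were cultured to MI in batch B. None of the 10 was past the adjusted p in edgeR (0 of 10 called, where 0.121% of 12419 genes were, and 0.145% were past the adjusted p), 1 had an unadjusted p under 0.05 beside 1371 of all genes, and DESeq2 also called 0 of 10. No gene's groups separated, where 0% of all genes tested had groups without overlap. The median log2 fold change was -0.03, and that of all genes was 0.02. Spike-ins were close to absent in batch B, so no spike-in scaling was made there.

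Fmn2 ranged from 112 to 254 CPM in GV (median 191) and from 97.1 to 297.5 CPM in MI oocytes (median 200.05), a log2 fold change of 0.08 (SE 0.153). Spire1 ranged from 253 to 420 CPM in GV (median 322) and from 224 to 446 CPM in MI oocytes (median 285), a log2 fold change of -0.05 (SE 0.129). The ranges of both nucleators were wider than the shift between the groups. Spire2 ranged from 1.54 to 6.95 CPM in GV and reached 15.0 CPM in MI oocytes, with 0 counts in MI oocyte 15, and its log2 fold change of 0.51 had an SE of 0.364.

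The Arp2/3 subunits stayed within their spread as well. Actr2 had a log2 fold change of -0.00 (SE 0.111), with medians of 195 CPM in GV and 190 CPM in MI oocytes. Actr3 had medians of 64.4 CPM in GV and 59.7 CPM in MI oocytes, and 6 of 15 MI oocytes lay above every GV oocyte, with a log2 fold change of 0.15 (SE 0.126, adjusted p = 0.731). Arpc4 had the largest change of the 10, with a median of 5.33 CPM in GV and 3.40 CPM in MI oocytes and a log2 fold change of -0.72 (SE 0.348, unadjusted p = 0.0450, adjusted p = 0.441). Of the 15 MI oocytes 10 lay below the GV median of Arpc4 and 4 below every GV oocyte. Arpc4 shares 283 exon bases on the same strand with Ttll3, and HTSeq gave it a median of 1.02 counts per expected count, against 1.78 to 2.28 for the other members. Ttll3 had a mean of at most 0.203 CPM in any group, and its part in the level of Arpc4 was not tested. Arpc2 had medians of 28.2 CPM in GV and 22.3 CPM in MI oocytes, Cfl1 132 and 112 CPM, Rac1 42.4 and 36.2 CPM, and Myo5b 279 and 333 CPM, and 13 of 15 MI oocytes lay above the GV median of Myo5b.

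The markers Gja1, a gap junction gene of cumulus cells, and Ccnd2, a cyclin of granulosa cells, were called lower in MI oocytes. Gja1 had a median of 2.10 CPM in GV and 0.166 CPM in MI oocytes, and Ccnd2 3.10 and 0.0432 CPM, with log2 fold changes of -3.42 and -3.69, and each was below its GV median in 15 of 15 MI oocytes. Neither call held on HTSeq counts, with a replicate block or without MI oocyte 7, where 0 genes were called. Inhba, a granulosa marker too scarce to pass the filter, had a median of 1.14 CPM in GV and 0.173 CPM in MI oocytes and lay below every GV oocyte in 14 of 15 MI oocytes. The other tested markers of that list were not past the adjusted p. Nr5a2 stood at 0.75 (adjusted p = 0.272), Has2 at 1.21 (adjusted p = 0.670), Kitl at 0.04 (adjusted p = 0.988) and Cyp19a1 at -0.22 (adjusted p = 0.742), and the median sum of the list was 38.0 CPM in GV and 36.9 CPM in MI oocytes. Whether they bear on the levels of the actin genes was not tested. MI oocytes 4, 8 and 9 stood apart in how HTSeq and RSEM counted them, with 0.648, 0.634 and 0.529 HTSeq counts per expected count over all genes against a median of 1.203 in the other 34 oocytes, and without them 0 of the 10 genes were called as well.

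**Figure D2:**
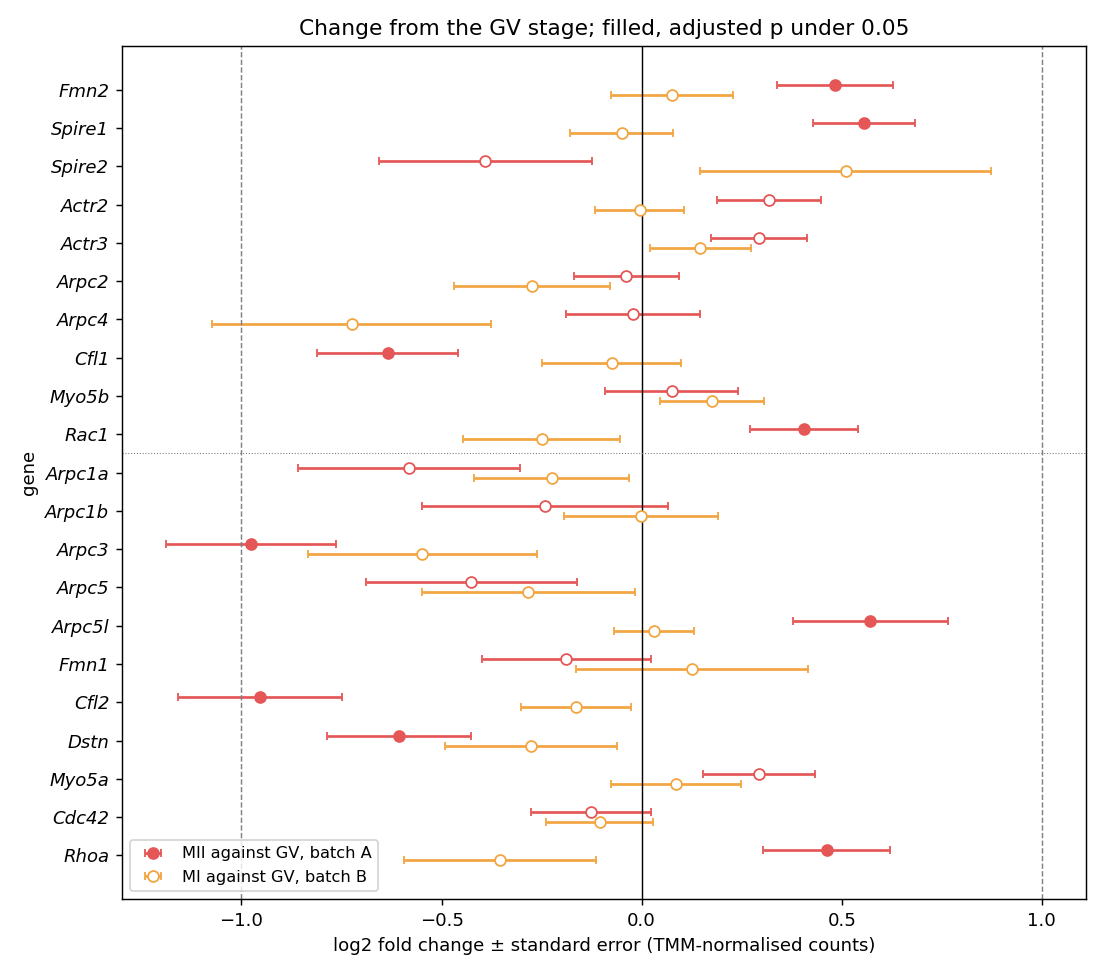
Log2 fold change with its standard error under TMM scaling, MII against GV in batch A and MI against GV in batch B, for the 10 actin genes (above the dotted line) and 11 related genes, with filled points for an adjusted p under 0.05 and dashed lines at a 2-fold change. Spire1, Fmn2 and Rac1 lay above 0 and Cfl1 below it with filled points in batch A, though with spike-in scaling, not drawn, all 10 lay below 0 there, and no point of batch B was filled.

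An effect past the threshold in batch A and not in batch B is not by itself a difference, so the MII change minus the MI change was tested in a model of all 37 oocytes. Spire1 had a difference of 0.68 (SE 0.208, adjusted p = 0.0444) and was 1 of 10 genes past the adjusted p, where 5.46% of 15083 genes were. It missed the threshold on HTSeq counts (0.73, adjusted p = 0.0659), without a filter on low counts (0.61, adjusted p = 0.0932), and on HTSeq counts without MI oocytes 4, 8 and 9 (0.64, adjusted p = 0.0892), the last an alternative chosen after seeing the data. At an unadjusted p under 0.05 there were 3 of the 10, beside 2671 of all genes. For Rac1 the difference was 0.73 (adjusted p = 0.169) and for Actr2 0.39 (adjusted p = 0.238). Fmn2 had 0.48 (adjusted p = 0.304) and Cfl1 -0.48 (adjusted p = 0.392), so their changes were not shown to differ between the comparisons. Each change was measured within its own batch, and the difference carries stage, batch and way of maturation together.

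The rest of the actin machinery was read from 121 other genes, grouped by role, of which 102 were tested in batch A. Past the adjusted p were 13 higher and 11 lower in MII oocytes under TMM, where 9.06% of all genes tested were higher and 11.5% lower. Spike-in scaling gave 0 higher and 34 lower of the 102, beside 144 higher and 5452 lower of all 12929 genes, with a list median log2 fold change of 0.16 under TMM and -0.59 with spike-ins. The count of 24 was 15 without GV oocyte 4, 15 without GV oocyte 5, 14 without MII oocyte 1 and 13 without MII oocyte 4. In edgeR under TMM the single call was Tmsb10, the actin monomer binder thymosin beta-10. It ranged from 285 to 513 CPM in GV and from 73.1 to 122 CPM in MII oocytes without overlap, a log2 fold change of -1.95 (SE 0.180, adjusted p = 5.67e-06). Some other settings called more genes of these lists. DESeq2 called 2 lower, HTSeq counts gave 1 higher and 1 lower, and spike-in scaling gave 21 lower. Leaving out 1 oocyte gave up to 3 lower, without MII oocyte 2. Tmsb10 was also called lower in the difference between the comparisons (-1.39, adjusted p = 0.00163), though it missed the threshold there on HTSeq counts (-1.16, adjusted p = 0.0522). In batch B 0 of 97 tested genes of these lists were past the adjusted p in edgeR and 0 in DESeq2, with a median of 0.05.

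Among the 6 remaining Arp2/3 subunits 1 was higher and 1 lower under TMM, with a median log2 fold change of -0.33, and with spike-ins 0 were higher and 4 lower. Arpc5l, an alternative form of the ARPC5 subunit, ranged from 285 to 594 CPM in GV and from 451 to 725 CPM in MII oocytes, with 6 of 6 MII oocytes above the GV median and a log2 fold change of 0.57 (adjusted p = 0.0451), and was past the adjusted p in 4 of 12 fits without 1 oocyte. Arpc3, a peripheral subunit, ranged from 7.66 to 13.6 CPM in GV and from 4.16 to 6.57 CPM in MII oocytes without overlap, a log2 fold change of -0.98 (adjusted p = 0.00476), and missed the threshold in the model of all 37 oocytes (0.110). The log2 fold change was -0.58 for Arpc1a (adjusted p = 0.150), Arpc1b -0.24 (adjusted p = 0.618), Arpc5 -0.43 (adjusted p = 0.270) and Actr3b -0.06 (adjusted p = 0.944).

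Of 15 tested activators of Arp2/3, 5 were higher and 1 was lower (median 0.24 under TMM, -0.52 with spike-ins, where 0 were higher and 4 lower). Without MII oocyte 1 the counts were 1 higher and 0 lower, and on HTSeq counts 4 and 0. The higher ones, named after their values were seen, were Wasl, Wasf2, Whamm, Abi1 and Nckap1, with log2 fold changes from 0.41 for Abi1 to 0.71 for Whamm. Of the 12 fits without 1 oocyte, Nckap1 was past the adjusted p in 12, Wasl in 7, Abi1 in 7, Whamm in 6 and Wasf2 in 1. Nckap1, a WAVE complex subunit, ranged from 40.8 to 74.1 CPM in GV and from 83.9 to 109 CPM in MII oocytes without overlap, a log2 fold change of 0.63 (adjusted p = 0.00744). The lower one was Washc1 (-0.61, adjusted p = 0.0367), also named after its value was seen and past the adjusted p in 5 of the 12 fits. Of 4 tested inhibitors and debranching factors 1 was lower, Coro1b (-0.75), named in the same way and past the adjusted p in 3 of the 12 fits. Of 10 tested formins and other nucleators 1 was higher, Fhod3 (0.45, adjusted p = 0.0158), a choice of the same kind. Fhod3 was past it in 12 of the 12 fits but missed it without a filter (0.121), with a replicate block (0.0631) and in the model of all 37 oocytes (0.0559), and Fmn1, the paralog of Fmn2, ranged from 6.11 to 8.32 CPM in GV and from 4.46 to 7.63 CPM in MII oocytes (log2 fold change -0.19, adjusted p = 0.565).

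Of 16 tested genes of the cofilin family and its regulators 1 was higher, the kinase Rock1 (0.59, adjusted p = 0.00540, named after its value was seen), and 2 were lower, Cfl2 and Dstn, of which Cfl2 alone remained without MII oocyte 1 and on HTSeq counts. Of 15 tested genes of actin, profilin, capping and tropomyosin 1 was higher and 4 were lower, among them Tmsb10 and cytoplasmic gamma-actin Actg1 (-0.85, adjusted p = 0.000503, named after its value was seen). Of 15 tested myosin and Rab11 vesicle genes 0 were higher and 1 was lower, Rab11b (-0.74, adjusted p = 0.0283, likewise named afterwards), which missed the threshold on HTSeq counts (0.0560) and was past it in 7 of the 12 fits without 1 oocyte. Rhoa, which drives contraction of the cleavage ring, ranged from 23.6 to 33.7 CPM in GV and from 31.0 to 50.2 CPM in MII oocytes, a log2 fold change of 0.46 (adjusted p = 0.0476), which missed the threshold on HTSeq counts (0.0660) and was past it in 3 of 12 fits without 1 oocyte. Cdc42, the GTPase of cortical polarity, stood at -0.13 on that scale (adjusted p = 0.586). Rac2 and Rac3, the paralogs of Rac1, had at most 1.86 CPM in any oocyte of batch A, and Myo5c, the remaining paralog of Myo5b, also had at most 1.86 CPM.

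Between genes, levels were compared as counts per base of transcript, scaled to the same total in every oocyte without TMM. The counts of each transcript were divided by its own length and summed over all transcripts of the gene. Short transcripts, non-coding ones included, therefore weigh more per count. In GV oocytes of batch A Cfl1 was the highest of the 10 at 512 ± 131 (SD, n = 6), followed by Myo5b at 188 ± 35.8 and Spire1 at 165 ± 22.7, which did not differ beyond their spread. Then came Rac1 at 91.7 and Actr3 at 81.6, again within their spread, Arpc2 at 68.2, and Fmn2 at 57.2 and Actr2 at 51.2, also within theirs. Arpc4 at 17.1 and Spire2 at 8.47 were the lowest, and the median of all genes at 1 or more was 10.7. In MII oocytes Cfl1 was at 275 ± 58.8 (SD, n = 6), Spire1 at 201 ± 43.5 and Myo5b at 171 ± 32.7, the last pair within their spread. Rac1 followed at 101, Actr3 at 85.1, Fmn2 at 69.3, Arpc2 at 55.9 and Actr2 at 54.2 within their spread, Arpc4 at 13.4 and Spire2 at 5.42.

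In batch B the order began differently. In GV oocytes Myo5b was at 329 ± 127 (SD, n = 10) and Spire1 at 279 ± 64.4, within their spread and ahead of Cfl1 at 146 and Actr2 at 98.2. The place of Myo5b is not that of its coding message alone. Its non-coding transcript Myo5b-208, of 764 bases, had a mean of 620.6 counts in these GV oocytes. The coding Myo5b-201, of 6745 bases, had 1759.1, and so weighed less per base. Fmn2 at 59.9, Actr3 at 53.6, Rac1 at 44.1 and Arpc2 at 38.7 each lay within the spread of the next, and so did Arpc4 at 7.74 and Spire2 at 3.46 at the low end. In MI oocytes Myo5b was at 356 ± 101 (SD, n = 15), Spire1 at 258, Cfl1 at 137, Actr2 at 96.0, Actr3 at 63.9, Fmn2 at 63.2, Rac1 at 36.5, Arpc2 at 32.4, Spire2 at 5.16 and Arpc4 at 5.06. There the neighbours Myo5b and Spire1, Cfl1 and Actr2, Actr3 and Fmn2, Rac1 and Arpc2, and Spire2 and Arpc4 did not differ beyond their spread. Levels were not tested between the batches. In all 4 groups Arpc5l was the most abundant of the Arp2/3 subunits per length, from 630 in GV oocytes of batch A to 847 in MI oocytes.

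**Figure D3:**
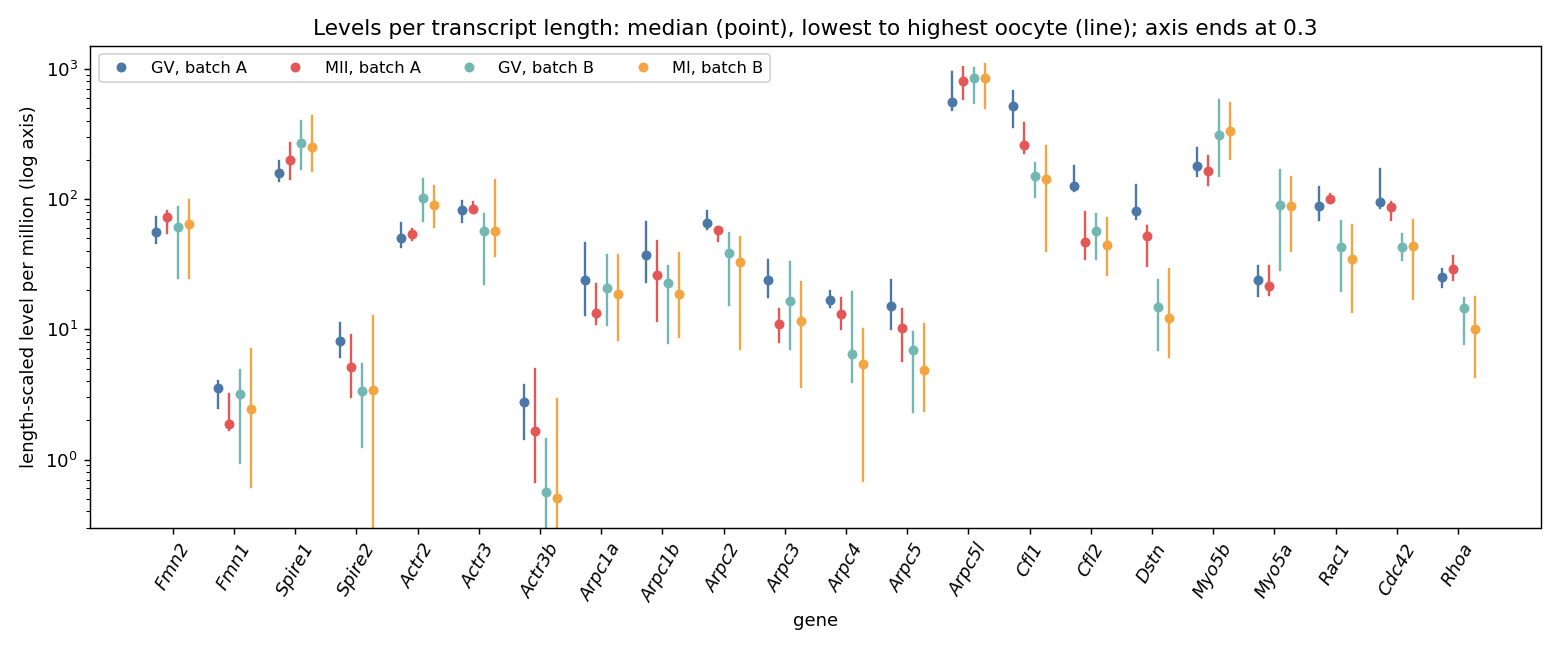
Level per transcript length, scaled to the same total in each oocyte, on a log axis that ends at 0.3, for the 10 actin genes and related genes, with a point for the median and a line from the lowest to the highest oocyte of each of the 4 groups. Of the 10, Cfl1 was the highest in batch A and Myo5b in batch B, with Spire2 and Arpc4 the lowest in every group. Levels sum all transcripts of a gene, so short non-coding transcripts of Myo5b weigh in its place.

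At the level of transcripts, 32 of the 56 passed the filter in batch A and 35 in batch B. edgeR called 0 of the 32 in batch A, where 5.57% of 22461 transcripts were called and 5438 had an unadjusted p under 0.05, and 0 of the 35 in batch B, where 0% of 22717 were and 1615 had an unadjusted p under 0.05. DESeq2 also called 0 of them in each batch. In batch A 2 were past the adjusted p in edgeR, where 9.30% of transcripts were, and each belonged to a gene past it. DESeq2 put 5 of the 32 past it, beside 3419 of all 22461 transcripts, adding Fmn2-201 (0.0186), Rac1-202 (0.0404) and Myo5b-210, which had a log2 fold change of -0.63 there (adjusted p = 0.0215; 0.0615 in edgeR) in a gene not past it, while a replicate block left 0. Spire1-207, which held a mean of 25.2% of the gene's counts in GV and 27.1% in MII oocytes, changed by 0.63 on the log2 scale (SE 0.164, adjusted p = 0.0299), and it missed the threshold without a filter (0.158). Cfl1-201, with 681 coding bases against 498 in Cfl1-202, had a log2 fold change of -0.72 (SE 0.154, adjusted p = 0.0108).

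Pooled over all 37 oocytes, a single transcript held nearly all counts of Fmn2 (Fmn2-201, 99.2%) and of Actr2 (Actr2-201, 99.97%). The counts of Arpc2 were mostly in Arpc2-203 (81.1%) and those of Rac1 in Rac1-202 (66.7%). Rac1-202 is annotated with 633 coding bases, against 576 in Rac1-201. These forms also differ in whole length, at 2325 and 4159 bases, so their shares need not follow the coding difference. For Cfl1, Arpc4, Spire2, Spire1, Actr3 and Myo5b the most counted transcript held 55.5%, 55.3%, 52.9%, 49.6%, 49.5% and 46.1% of the pooled counts, in that order, but for 4 of these genes the leading transcript changed with the group. By mean share, Spire1-204 led in batch A (36.9% in GV and 34.6% in MII oocytes) and Spire1-207 in batch B (59.2% in GV and 55.8% in MI oocytes). Spire2-202 led in batch A (68.8% in GV and 73.5% in MII oocytes) and Spire2-201 in GV oocytes of batch B (67.0%, SD 41.5). Cfl1-201 led in GV oocytes of batch A (52.7%, SD 4.78) and Cfl1-202 in the other groups, in MII oocytes at 50.2% (SD 2.26). In both groups of batch A the ranges of Cfl1-201 and Cfl1-202 overlapped, so these leads lay within the spread. Actr3-202 led in MI oocytes (52.6%, SD 15.8, against 32.6%, SD 19.6, for Actr3-201). Shares were not tested between the batches. Use of the transcripts within a gene was tested for 9 of the 10, as Actr2 had a single transcript to test, and 0 were past the adjusted p in either batch in edgeR (5.51% of 5478 genes in batch A and 0.126% of 5536 in batch B were). At an unadjusted p under 0.05 there were 848 genes in batch A and 340 in batch B, and DESeq2 has no such test. Of the 9, Myo5b had the lowest p in batch A (unadjusted p = 0.00775, adjusted p = 0.0989). With transcripts of at least 10 counts on average its p was 0.249 (adjusted p = 0.695), above those of Spire1 (0.126) and Actr3 (0.141). Its retained-intron transcript Myo5b-210 held from 20.9% to 44.1% of the gene's counts in GV oocytes (median 33.4%) and from 18.9% to 23.7% in MII oocytes (median 20.2%), and the groups overlapped.

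The 3′ ends are shown because the libraries were primed at poly(A) tails and stored oocyte messages are known to have their tails lengthened through cytoplasmic polyadenylation elements. Within the last 100 bases of the most counted transcript of each of 12928 tested genes, the hexamers AATAAA or ATTAAA (poly(A) signals) were found in 73.7%, the elements TTTTAT or TTTTAAT in 18%, and both in 14.6%, reading the transcript strand only. Of the 8 member transcripts described here, Spire2-201 held none of these motifs in that window, the other 7 held a signal, and Actr2-201 alone held an element as well, which began 13 bases before its signal. The windows lie at annotated ends, and which 3′ ends these oocytes used was not examined. Spire2-201 was also the less counted form of its gene in batch A. Positions are from GENCODE M21 on GRCm38 (mm10), each line is at most 30 bases of the transcript from 5′ to 3′, and capitals mark the signal or element, taken as the match nearest the 3′ end where there were several. The lines of Fmn2 and Cfl1 hold further copies of AATAAA in lower case. The set shown is Actr2 for its element, and Fmn2, Cfl1 and Rac1, as genes past the adjusted p in batch A. The 3′ ends of Spire1, which was past it too, and of Myo5b were not described, and the Cfl1 transcript shown is the most counted one, Cfl1-202 (adjusted p = 0.112), not Cfl1-201. The transcript of Fmn2 lies on the plus strand of chromosome 1 (174501825 to 174822729), that of Actr2 on the minus strand of chromosome 11 (20062304 to 20112913), that of Cfl1 on the plus strand of chromosome 19 (5490455 to 5495201) and that of Rac1 on the minus strand of chromosome 5 (143505482 to 143527993). A match is a description, not a site or a cause.
Fmn2-201: ttatatgaaaataaaatgaatAATAAAata
Actr2-201: aatatacttctTTTTAATtaagaaAATAAA
Cfl1-202: taaataaataaatgaataAATAAAactttt
Rac1-202: catgtatgaattAATAAAtccttgaatcat

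The genes whose levels were most like those of the nucleators were sought among 7173 genes with at least 100 counts on average, by Pearson's r of log2 CPM over the 37 oocytes after batch means were taken out. For Fmn2 they were Arhgap12 (r = 0.742), Anln (0.740) and Rictor (0.727). For Spire1 they were Psip1 (0.762), Fbxo3 (0.753) and Naa30 (0.747). Spire2 fell under the count minimum. These values describe the oocytes, which share depth and stage, and no test was made of them.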

How the data were processed

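RNA of 37 single oocytes was measured. The authors trimmed reads with Trim Galore 0.6.4 and estimated the deposited expected counts per gene and transcript with RSEM 1.3.1 on mm10. The authors made the deposited HTSeq counts with STAR 2.7.6a and HTSeq 0.12.4; neither table was scaled. Of 54844 gene identifiers, 92 of them spike-ins, 54723 matched GENCODE M21. The expected counts, rounded, went into edgeR 4.0.16 (quasi-likelihood, filterByExpr, TMM, Benjamini-Hochberg) in R 4.3.3, with summaries in Python 3.11.15, pandas 2.3.3 and numpy 2.4.6. Spike-ins were left out of tests. Alternatives were DESeq2 1.42.0, no filter, RLE, spike-in scaling, HTSeq counts, a replicate block, 1 model of all oocytes, and leaving out oocytes. Transcript usage was tested with diffSpliceDGE, which on simulated counts made more false calls than its threshold allows. The counting error of amplified cDNA without molecular identifiers understates the error of a value. The members, and the lists of other genes, were chosen with earlier results of these data known. Named genes are the members, called genes of the lists, the remaining Arp2/3 subunits, the paralogs Fmn1, Cfl2, Dstn, Myo5a, Myo5c, Rac2, Rac3, Cdc42 and Rhoa, the most counted transcripts, the 3 genes most like Fmn2, Spire1 or Spire2, with a minimum of 100 counts, and genes of the lists past the adjusted p, cumulus and granulosa markers and transcripts of members that were chosen after their values were seen. The reads themselves were not used here. The result of 1 of the gene lists is not reported here.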

Additional observations from a re-analysis of the deposited data

Results flagged for a closer look

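The MII change of Spire1 minus its MI change was 0.68 on the log2 scale, and the test of that difference between the comparisons was past the adjusted p, with the error and the alternatives given above. In 0 of the 30 sets of a gene and a group with 6 or 10 oocytes did an oocyte stand apart from the others by the gap to its nearest neighbour.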

How the results depend on the processing

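Of the alternative values for the 10 log2 fold changes, with single oocytes kept in, 48 in batch A kept direction and side of the threshold, 8 lost it, 5 gained it and 9 reversed; in batch B 76 kept both and 4 reversed. For batch A spike-in scaling gave 2 members called and 3919 genes (131 higher, 3788 lower), and reversed Fmn2 (-0.28), Spire1 (-0.19), Actr2 (-0.44), Actr3 (-0.43), Myo5b (-0.66) and Rac1 (-0.37). No fold threshold gave 4 members. No filter gave 1859 genes (895 higher, 964 lower) and 2 members past the adjusted p. A replicate block gave 2 members and 10 other actin genes (6 higher, 4 lower); the replicate numbers do not pair oocytes. The model of all oocytes gave 653 genes (227 higher, 426 lower), 1 member and 8 other actin genes (5 higher, 3 lower), and reversed Arpc2 (0.0162) and Arpc4 (0.0336); HTSeq counts reversed Arpc2 (0.009). Leaving out 1 oocyte gave 842 to 1246 genes called, 2 to 5 members and 13 to 22 other actin genes past the adjusted p, and log2 fold changes of -0.0706 to 0.0088 for Arpc2, -0.0652 to 0.0162 for Arpc4 and -0.0368 to 0.16 for Myo5b. For batch B the 15 genes called became 40 without a filter, 121 in DESeq2 (107 higher, 14 lower), 107 in the model of all oocytes, 36 without MI oocytes 4, 8 and 9, 0 on HTSeq counts with and without those oocytes, 0 with the block, and 0 to 82 with 1 oocyte left out (0 without MI oocyte 7, 82 without MI oocyte 9). Reversed were Fmn2 with the block (-0.0201), Actr2 without MI oocytes 4, 8 and 9 (0.0164 on RSEM and 0.0248 on HTSeq counts), Cfl1 on HTSeq counts (0.0435), and Actr2 with 1 oocyte left out (-0.0544 to 0.034). The members past the adjusted p for the difference of changes became 0 on HTSeq counts, with and without those oocytes, and 0 without a filter. The counts of members and of other actin genes past the adjusted p, and HTSeq counts without MI oocytes 4, 8 and 9 for the difference, were alternatives chosen after seeing the data. The cause of these changes was not tested. The standard error was largest for Spire2, 0.267 in batch A and 0.364 in batch B, whose counts were low.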
